A study of Sus scrofa with 9 samples.

Results

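The 10 genes described here encode the T cell receptor complex and the proteins by which a T cell is usually recognised: CD3D, CD3E, CD3G, CD4, CD8A, CD2, CD5, CD6, LCK and ZAP70. They were taken by gene name from the expression table of the abdominal aorta, where each name had 1 row, and are 10 of its 21357 genes. RNA came from the lower end of the abdominal aorta. The animals were male minipigs of the Tibetan breed. The NC group (normal control) received a normal diet for 24 weeks. The H8 group (hypercholesterolemia) received a high-fat diet for 8 weeks and the H24 group (atherosclerosis) a high-fat diet for 24 weeks. By the study's methods, the 24-week diet was high in both fat and cholesterol. Each group had 3 libraries, from 3 separate pigs each in NC and H24. The H8 group is known only from the sample labels, and the study's methods describe neither its pigs nor its diet. Because NC pigs were sampled at 24 weeks only, the diet and the time on study cannot be told apart in H8/NC, and in H24/H8 the length of the diet and the time on study cannot be told apart either.

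A T cell reads its antigen with a receptor that has no signalling tail of its own. The CD3 chains (gamma, delta and epsilon) and the zeta chain carry the signal into the cell, the coreceptors CD4 and CD8 bring the kinase LCK to the receptor, and LCK phosphorylates the chains so that the kinase ZAP70 can dock. CD2 helps the T cell to adhere to its partner cell, while CD5 and CD6 are scavenger-type receptors that adjust the strength of the signal. T cells are a regular part of the atherosclerotic plaque, where they lie beside macrophages and foam cells. In an RNA sample of the whole vessel wall, a change in the number of T cells and a change in RNA per T cell cannot be told apart.

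The libraries held between 44094263 and 75787978 estimated counts, and 3 counts, taken as the smallest signal, were worth 0.0396 to 0.068 CPM (counts scaled to a common depth). The smooth muscle markers (ACTA2, MYH11, TAGLN, CNN1, MYLK and DES) summed to 10421 to 12633 FPKM (fragments per kilobase of transcript, scaled to the depth of the library) in NC and to 9386 to 12300 FPKM in H8, so the defining markers of the vessel wall were present. The H24 replicate 3 library stood apart. Its smooth muscle markers summed to 1635 FPKM against 7316 and 10865 FPKM in the other H24 libraries, and its Pearson's r with the NC libraries was 0.843 to 0.845, while H24 replicates 1 and 2 correlated at 0.962 with each other. The H24 replicate 2 library was the shallowest and stood apart in CD3E alone among the 10 genes. For the 10 genes, the H24/NC results are therefore also given without H24 replicate 3, and for CD3E without H24 replicate 2. The values of single pathway genes and the counts of markers are given with all libraries only.

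In NC, all 10 genes were low. Their levels lay between 0 and 0.163 FPKM, on 0 to 67 counts per gene and library, and their sum was 0.675, 0.549 and 0.392 FPKM in NC replicates 1, 2 and 3. The sum was 1.55, 1.20 and 1.91 FPKM in H8 and 6.65, 19.4 and 29.8 FPKM in H24. The 3 groups did not overlap in this sum, with H8 above NC and H24 above H8. The high sum of H24 replicate 2 was mostly CD3E, and that of H24 replicate 3 was spread over all the genes.

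**Figure D1:**
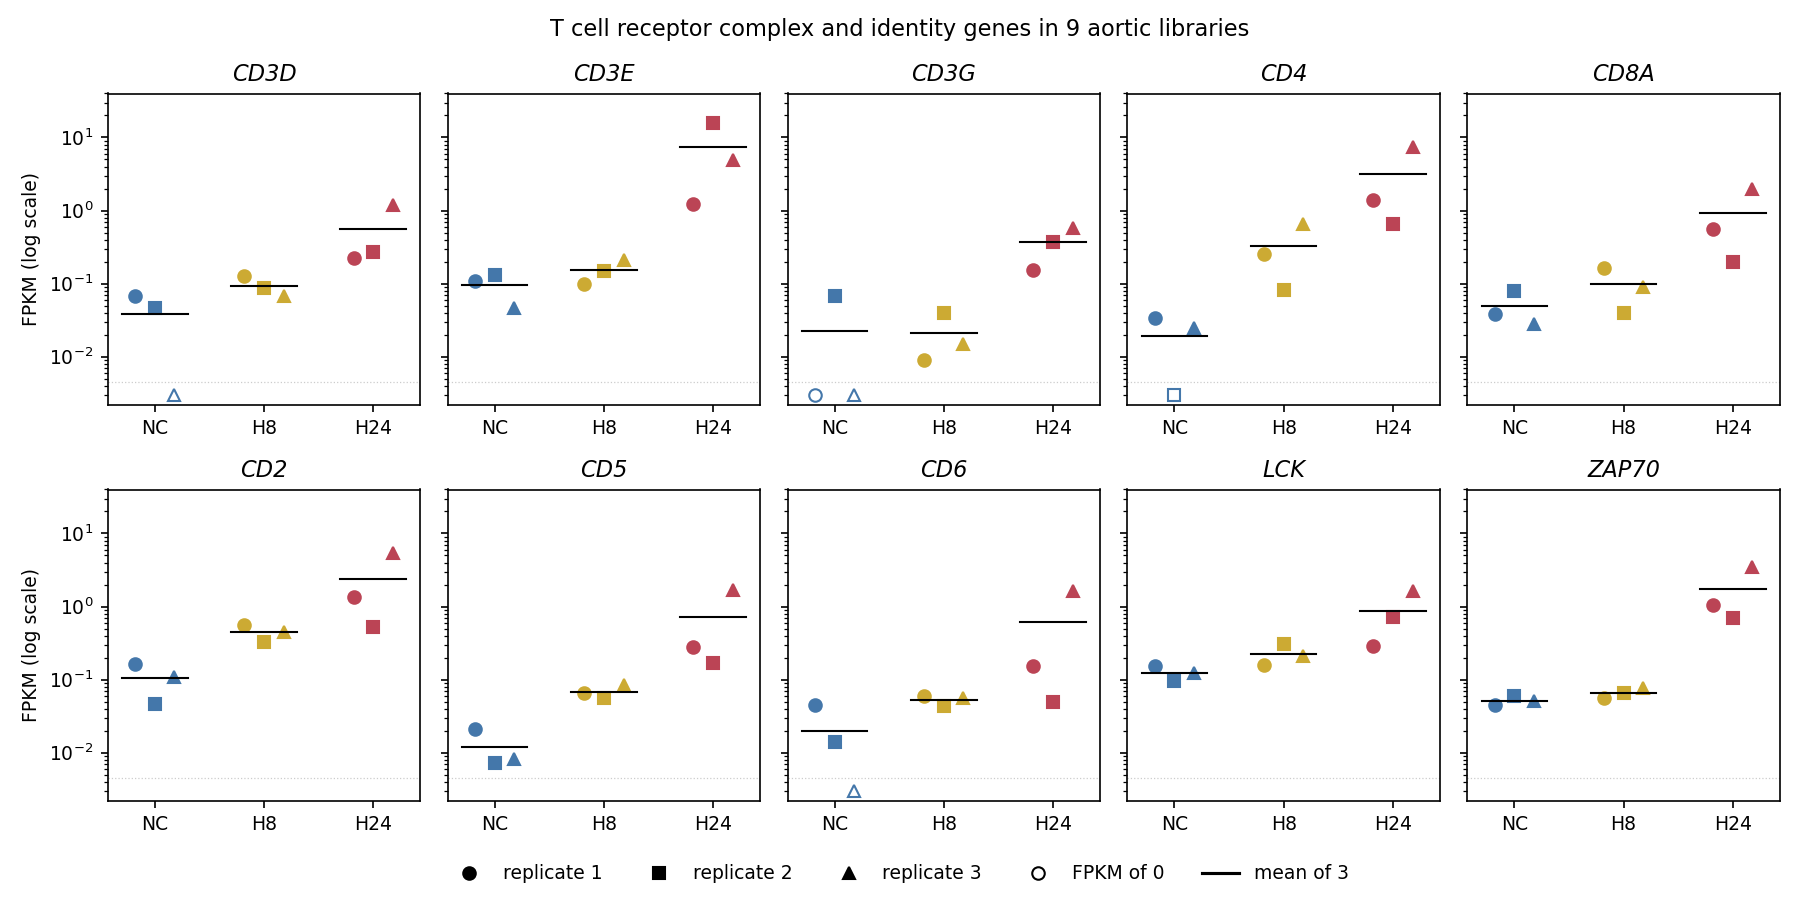
FPKM of the 10 genes (log axis) in the 9 libraries, with 1 panel per gene, a symbol per replicate and a line at the mean of 3. Open symbols below the dotted line stand for an FPKM of 0. All H24 libraries lie above all NC libraries in every panel, CD3E is highest in H24 replicate 2 at 15.8 FPKM, and the other 9 genes are highest in H24 replicate 3.

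The order of the genes by mean level changed between the groups. LCK led in NC with 0.124 ± 0.0284 FPKM (SD, n = 3), followed by CD2 with 0.107 ± 0.0580 FPKM. CD2 led in H8 with 0.446 ± 0.122 FPKM, followed by CD4 with 0.330 ± 0.296 FPKM. CD3E led in H24 with 7.33 ± 7.55 FPKM, followed by CD4 with 3.13 ± 3.66 FPKM and CD2 with 2.40 ± 2.58 FPKM. Most steps in these orders were smaller than the spread between libraries. The difference between neighbouring means was within the larger of their SDs in 8 of 9 steps in NC, 7 of 9 in H8 and 9 of 9 in H24. The steps beyond it were CD3E over ZAP70 in NC, and ZAP70 over CD6 and CD6 over CD3G in H8.

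The CD3 chains lie together on chromosome 9 (Sscrofa11.1). The row of CD3E (ENSSSCG00000040140) spans chr9:45619381-45635379 on the plus strand, that of CD3D (ENSSSCG00000015093) chr9:45622468-45644243 on the minus strand, and that of CD3G (ENSSSCG00000015094) chr9:45645027-45702018 on the plus strand. The CD3D and CD3E rows overlap by 12912 bp on opposite strands. RefSeq gives CD3D a span of 3679 bp in place of 21776 bp, which begins past the end of CD3E. Whether the libraries or the counting kept the strand is not stated, so reads in the shared stretch cannot be told apart. The CD3G row runs 40929 bp into that of UBE4A, a ubiquitin ligase gene on the same strand, and RefSeq ends CD3G before it. UBE4A was measured at 7.00 to 12.4 FPKM in all libraries and the CD3G to UBE4A ratio was at most 0.0534, so a small misassignment could matter for CD3G, and its values are uncertain for that reason.

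**Figure D2:**
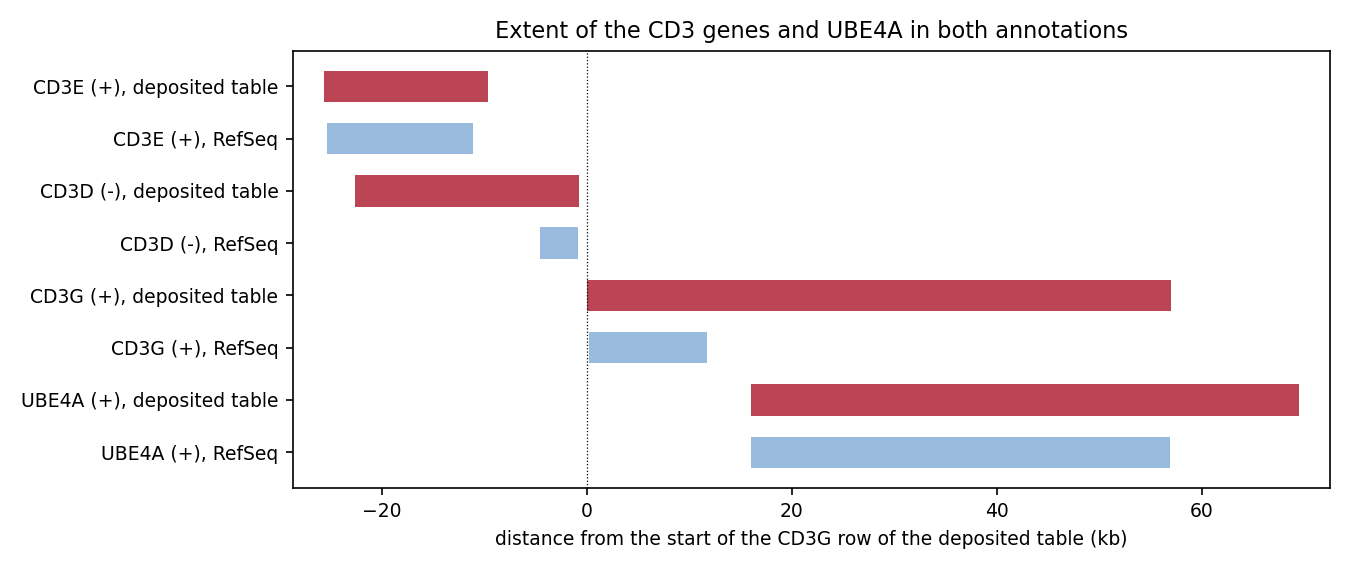
Extent of the rows of CD3E, CD3D, CD3G and UBE4A in the deposited table and in RefSeq, as distance from the start of the CD3G row in kb, with the strand in parentheses. The CD3D row overlaps CD3E by 12912 bp and the CD3G row overlaps UBE4A by 40929 bp in the deposited table, while in RefSeq CD3D lies past the end of CD3E and CD3G ends before UBE4A.

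In H24/NC, all 10 genes were higher in FPKM in every H24 library than in every NC library, CD6 only narrowly, and 9 passed the thresholds for DEGs (a log2 fold change above 1 with an unadjusted p-value under 0.05 in edgeR). Of all 14828 genes tested, 9.95% passed upward, and of 18407 genes with a count, 11.0% lay higher in H24 without overlap. All 10 genes passed the filter on low values (a mean of 0.1 FPKM over the libraries compared), but 8 of them only through H24, and only CD2 and LCK were over 0.1 FPKM in NC. A gene that enters through the group where it is high had to differ, so the count of 9 is no support by itself. After Benjamini-Hochberg adjustment, edgeR called 0 of the 10 genes and 0 of all genes. DESeq2 called 9 of the 10 at the adjusted threshold, with 879 genes higher and 75 lower in the whole table. Without H24 replicate 3, edgeR called 3 of the 8 genes still tested at the adjusted threshold, with 290 genes higher and 16 lower in the whole table. The 3 were CD3E, CD4 and ZAP70, which passed the filter only through H24, so this count is no support by itself either.

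CD3E, the epsilon chain, had the highest mean of the 10 genes in H24. It was measured at 0.110, 0.133 and 0.0465 FPKM in NC, at 0.0973, 0.151 and 0.208 FPKM in H8 and at 1.22, 15.8 and 4.98 FPKM in H24. NC and H8 overlapped, all H24 libraries were above both, and H24 replicate 2 was 12.9 times H24 replicate 1. The log2 fold change in H24/NC was 6.20 ± 1.07 (SE, edgeR adjusted p = 0.132). Without H24 replicate 2 it was 4.93 (adjusted p = 0.0661). Without H24 replicate 3 it was 6.42 (adjusted p = 0.0273), past the adjusted threshold, where 290 of all genes passed upward. CD3D, the delta chain, was at 0.0679, 0.0457 and 0 FPKM in NC, at 0.126, 0.0872 and 0.0681 FPKM in H8 and at 0.223, 0.267 and 1.19 FPKM in H24. The groups followed each other without overlap, although the lowest H8 library exceeded the highest NC library by hardly anything. Its log2 fold change in H24/NC was 3.76 ± 1.32 (edgeR adjusted p = 0.284), and the call was lost without H24 replicate 3 (2.57, adjusted p = 0.516) and without NC replicate 2 (3.93, adjusted p = 0.532).

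CD3G, the gamma chain, was detected in only 1 NC library. It was at 0, 0.0672 and 0 FPKM in NC, at 0.00889, 0.0396 and 0.0149 FPKM in H8 and at 0.155, 0.374 and 0.573 FPKM in H24. H24 lay above the other groups, which overlapped. It was the only one of the 10 genes that missed the thresholds in H24/NC (log2 fold change 3.93 ± 1.67, edgeR adjusted p = 0.362). Without H24 replicate 3 its log2 fold change was 3.45 (adjusted p = 0.514), also not called. CD3G lay close to the threshold. With all libraries kept it was called with median-ratio factors (3.94), without the FPKM filter (3.92), with a replicate block (5.75), in 1 fit of the 9 libraries (3.94), in DESeq2 (3.97) and in limma on log2(FPKM + 0.1) (1.87). NC replicate 2 held all 34 NC counts. Without it the gene was called (adjusted p = 0.397), but its fold change then has no fixed size because both remaining NC libraries were at 0.

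The epsilon chain thus departed most from its partners in 1 library, H24 replicate 2. The ratio of CD3E to CD3D was 5.50, 59.0 and 4.17 in H24 replicates 1, 2 and 3. It was 0.770 to 3.05 in the NC and H8 libraries where both were detected, so all H24 libraries lay above these. The ratio of CD3E to PTPRC (CD45, the phosphatase carried by all leukocytes) was 18.5 in H24 replicate 2 and between 0.0497 and 0.723 in the other 8 libraries. CD3D, CD3G, CD2 and LCK did not show such an excess in H24 replicate 2: CD3D stood there at 33 counts beside 2321 counts of CD3E. The zeta chain CD247, named here after its values were seen because it completes the complex, had a pattern of its own. It was at 1.28, 1.61 and 1.39 FPKM in NC, at 0.803, 0.680 and 1.33 FPKM in H8 and at 1.66, 1.89 and 1.77 FPKM in H24. Its log2 fold change in H24/NC was 0.28 ± 0.28 (edgeR adjusted p = 0.705). In NC it exceeded CD3D 18.9-fold and 35.4-fold in the libraries where CD3D was detected, and in H24 7.47-fold, 7.07-fold and 1.48-fold.

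**Figure D3:**
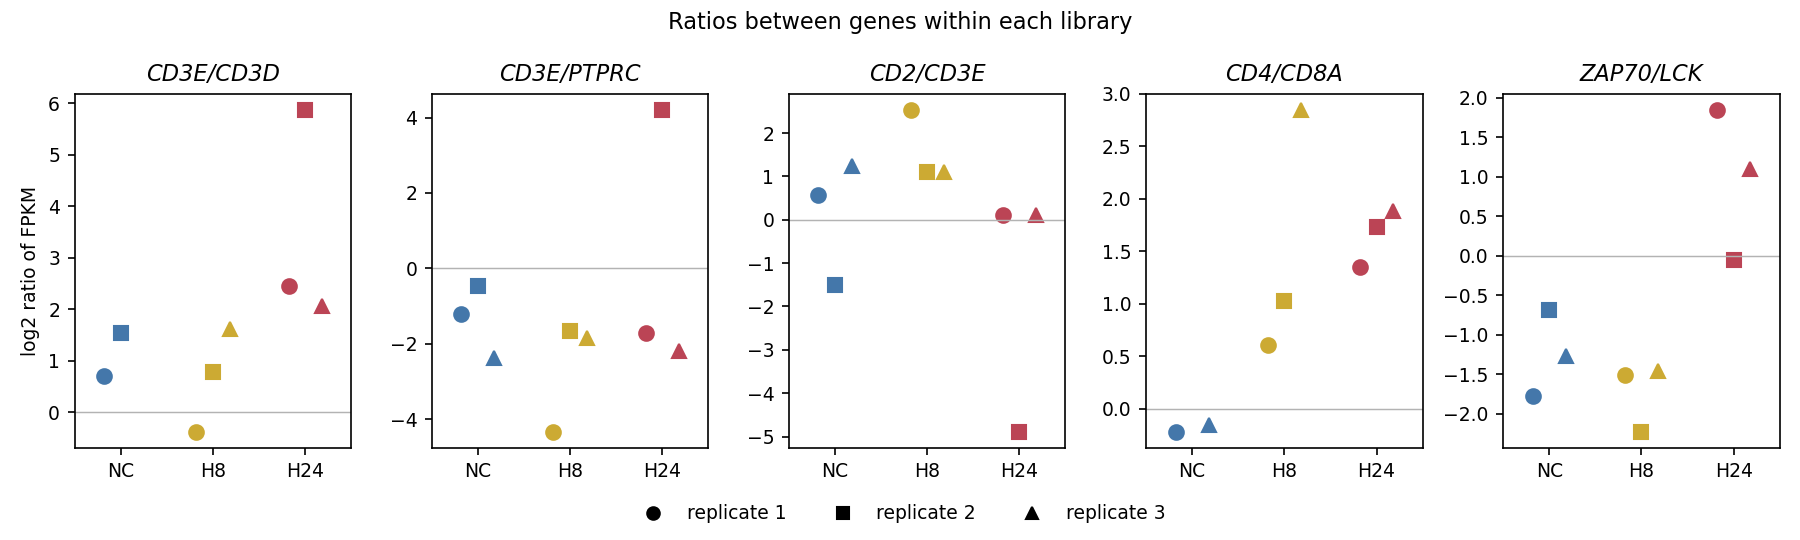
Log2 ratio of the FPKM of gene pairs in each library, with a symbol per replicate and a line at equal levels; libraries with 0 in either gene have no point. H24 replicate 2 stands alone in CD3E/CD3D (59.0), CD3E/PTPRC (18.5) and CD2/CD3E (0.0337), CD4/CD8A lies under 1 in NC and over 1 in H8 and H24, and ZAP70/LCK is higher in H24 than in the other groups.

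ZAP70 and LCK are the kinases that act in succession below the receptor. ZAP70 (ENSSSCG00000008193, chr3:56515143-56541806, minus strand) was at 0.0443, 0.0589 and 0.0511 FPKM in NC, at 0.0556, 0.0661 and 0.0764 FPKM in H8 and at 1.04, 0.691 and 3.48 FPKM in H24. NC and H8 were nearly the same and overlapped, and the lowest H24 library was far above both. ZAP70 had the smallest p-value of the 10 genes in H24/NC (log2 fold change 4.94 ± 0.78, edgeR adjusted p = 0.132). Without H24 replicate 3 it passed the adjusted threshold (3.93, adjusted p = 0.0177), where 290 of all genes passed upward. LCK (ENSSSCG00000003608, chr6:88719881-88749099, plus strand) was at 0.152, 0.0954 and 0.124 FPKM in NC, at 0.159, 0.311 and 0.210 FPKM in H8 and at 0.290, 0.721 and 1.62 FPKM in H24. NC did not overlap with H8 or H24, while H8 and H24 overlapped. LCK had a log2 fold change of 2.81 ± 0.69 in H24/NC (edgeR adjusted p = 0.150) and was still called without H24 replicate 3 (2.02, adjusted p = 0.177).

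The ratio of ZAP70 to LCK was higher in the H24 libraries than in those of NC and H8. ZAP70 stood at 0.291, 0.618 and 0.414 times LCK in NC, at 0.350, 0.213 and 0.363 times in H8 and at 3.61, 0.958 and 2.14 times in H24. H24 did not overlap with NC (difference of mean log2 ratios 2.21) or with H8 (2.70), each with an exact two-sided permutation p = 0.1 and an adjusted p = 0.338 over 27 comparisons of 9 ratios. This is the smallest p-value that 3 against 3 libraries can give. In all, 11 of the 27 comparisons did not overlap.

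CD4 and CD8A encode the coreceptor CD4 and a chain of the coreceptor CD8. Which cells carried them in these samples was not tested. CD4 (ENSSSCG00000000687, chr5:63892132-63918669, minus strand) was at 0.0334, 0 and 0.0248 FPKM in NC, at 0.251, 0.0816 and 0.657 FPKM in H8 and at 1.40, 0.653 and 7.33 FPKM in H24. NC did not overlap with the other groups, and H8 replicate 3 slightly exceeded H24 replicate 2. The log2 fold change of CD4 in H24/NC was 7.28 ± 1.41 (edgeR adjusted p = 0.132), above the 6.20 of CD3E. Without H24 replicate 3 it was 5.66 (adjusted p = 0.0417), below the 6.42 of CD3E. CD8A (ENSSSCG00000008217, chr3:57998830-58031823, plus strand) was at 0.0388, 0.0803 and 0.0278 FPKM in NC, at 0.164, 0.0401 and 0.0909 FPKM in H8 and at 0.550, 0.197 and 1.99 FPKM in H24. NC and H8 overlapped and H24 lay above both. Its log2 fold change in H24/NC was 4.15 ± 0.98 (edgeR adjusted p = 0.140), and 2.85 (adjusted p = 0.134) without H24 replicate 3. The CD4 to CD8A ratio was 0.860 and 0.893 in the NC libraries with both genes, 1.53, 2.04 and 7.23 in H8 and 2.55, 3.31 and 3.68 in H24. H24 lay above NC (difference 1.84, exact permutation p = 0.1, adjusted p = 0.338, 3 against 2 libraries, the smallest p such a comparison can give), H8 lay above NC (1.69, p = 0.200, adjusted p = 0.491), and H24 and H8 overlapped (0.15, exact permutation p = 0.900). The NC values rest on 6 to 15 counts per gene. CD8B, the partner chain of CD8A named here after its values were seen, was at 0.215 FPKM in H24 replicate 3 and at most 0.0296 FPKM elsewhere.

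CD2 (ENSSSCG00000006736, chr4:103962527-103977913, minus strand) was at 0.163, 0.0469 and 0.110 FPKM in NC, at 0.567, 0.323 and 0.449 FPKM in H8 and at 1.33, 0.532 and 5.35 FPKM in H24. NC was below the other groups without overlap, and H24 replicate 2 fell within the range of H8. The log2 fold change in H24/NC was 4.46 ± 0.99 (edgeR adjusted p = 0.134), and 3.08 (adjusted p = 0.0877) without H24 replicate 3. CD5 and CD6 are neighbours on the minus strand of chromosome 2 (CD5, ENSSSCG00000013115, chr2:10644686-10673958, and CD6, ENSSSCG00000013111, chr2:10735930-10785620), 61971 bp apart. CD5 was at 0.0209, 0.00714 and 0.00813 FPKM in NC, at 0.0647, 0.0554 and 0.0850 FPKM in H8 and at 0.277, 0.169 and 1.70 FPKM in H24. The 3 groups did not overlap. Its log2 fold change in H24/NC was 5.84 ± 1.15 (edgeR adjusted p = 0.132). CD6 was at 0.0444, 0.0141 and 0 FPKM in NC, at 0.0592, 0.0437 and 0.0557 FPKM in H8 and at 0.153, 0.0489 and 1.63 FPKM in H24. H24 was above NC, but H24 replicate 2 (0.0489 FPKM on 16 counts) hardly exceeded NC replicate 1 (0.0444 FPKM on 22 counts). H24 replicate 2 also lay within H8, and H24 replicate 3 was 16.1 times the mean of the other H24 libraries, the largest such excess among the 10 genes. The log2 fold change of CD6 in H24/NC was 4.92 ± 1.72 (edgeR adjusted p = 0.284) and was not called without NC replicate 2 (4.75, adjusted p = 0.555). Without H24 replicate 3, CD5 and CD6 fell under the filter and were not tested. The CD6 to CD5 ratio was 2.12 and 1.98 in NC, 0.656 to 0.915 in H8 and 0.290 to 0.957 in H24, with NC above both (H8 minus NC -1.39, exact permutation p = 0.1, adjusted p = 0.338, and H24 minus NC -1.94, p = 0.200, adjusted p = 0.491). The NC ratios rest on 4 to 22 counts per gene.

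In H8/NC, CD4 and CD2 were called higher and the log2 fold changes of the other 8 genes ranged from 0.12 to 2.62, of which 6 come from the fit without the filter. Only 4 of the 10 passed the filter, where 5.11% of all 14336 genes tested passed upward, and 2 of the 4, CD4 and CD3E, passed only through H8. The call of CD4 is therefore no support by itself. CD4 had a log2 fold change of 4.15 ± 1.21 (edgeR adjusted p = 0.227) and CD2 one of 2.18 ± 0.58 (edgeR adjusted p = 0.206). LCK (1.03 ± 0.48, adjusted p = 0.372) and CD3E (0.76 ± 0.63, adjusted p = 0.616) were tested and not called. The other 6 genes had a mean under 0.1 FPKM. Without the filter CD5 was called as well (2.62 ± 0.87, edgeR adjusted p = 0.285), where 4.57% of 18153 genes passed upward, and ZAP70 (log2 fold change 0.45), CD3G (0.12), CD8A (1.09), CD3D (1.39) and CD6 (1.56) were not, with adjusted p-values of 0.576 to 0.991. CD4, CD2, CD5, LCK and CD3D lay above NC in every H8 library, 5 of the 10 genes against 6.11% of the genes with a count. Without H8 replicate 3, its highest H8 library, CD4 fell under the filter and was not tested. edgeR called 0 of the 10 genes at the adjusted threshold, with 2 genes higher (0.0140%) and 2 lower among all genes. DESeq2 called CD4 and CD2 at that threshold, with 445 genes higher and 171 lower in the whole table.

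In H24/H8, all 10 genes were called, where 7.22% of 14788 genes passed upward, and 6 of them had passed the filter only through H24. edgeR called 0 of the 10 at the adjusted threshold and 2 of all genes (0.0135%), both higher. DESeq2 called 6 of the 10 at that threshold, with 447 genes higher and 203 lower in the whole table. ZAP70 (log2 fold change 4.44 ± 0.76, edgeR adjusted p = 0.325), CD3E (5.43 ± 1.01, adjusted p = 0.336), CD3G (3.79 ± 0.86, adjusted p = 0.336) and CD5 (3.16 ± 0.92, adjusted p = 0.336) kept the call whichever library was left out. CD3E without H24 replicate 2 stood at 4.11 (adjusted p = 0.212). Without H24 replicate 3, CD5 fell to 1.51 (adjusted p = 0.444) and ZAP70 to 3.47 (adjusted p = 0.237). CD8A (3.01 ± 0.93, adjusted p = 0.341) lost its call only without H24 replicate 3 (1.74, adjusted p = 0.476). CD4 (3.08 ± 1.07), CD2 (2.23 ± 0.81), CD3D (2.32 ± 0.85), CD6 (3.30 ± 1.23) and LCK (1.74 ± 0.69), with adjusted p-values of 0.341 to 0.346, each lost it in 3 or more of the 6 fits that left out a library, or in 3 of 5 for CD6. Without an H8 library their log2 fold changes were 2.64 to 4.00 for CD4, 2.09 to 2.41 for CD2, 2.11 to 2.57 for CD3D, 3.22 to 3.38 for CD6 and 1.52 to 2.13 for LCK. Without H24 replicate 3 they were 1.49 for CD4, 0.88 for CD2, 1.17 for CD3D and 0.99 for LCK, and CD6 was not tested. Only 4 of the 9 genes still tested were called without H24 replicate 3, where 547 of all 14589 genes tested passed upward. H24 lay above H8 without overlap in 6 of the 10 genes, against 13.1% of 18520 genes, and the other 4 were CD4, CD2, CD6 and LCK. H8/NC and H24/NC share the NC libraries, and H24/NC and H24/H8 the H24 libraries, so these comparisons are not independent of each other.

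**Figure D4:**
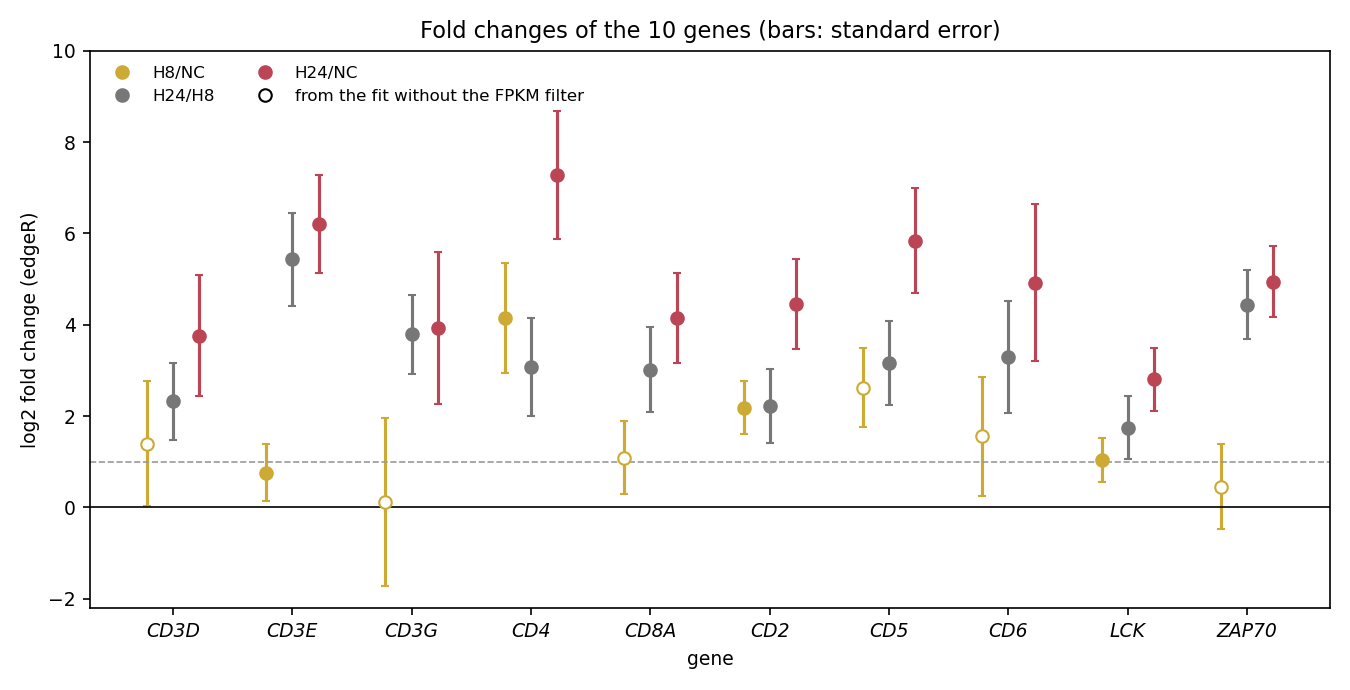
Log2 fold changes of the 10 genes from edgeR with their standard errors in H8/NC, H24/H8 and H24/NC, where open points come from the fit without the FPKM filter and the dashed line marks a log2 fold change of 1. CD4 (4.15) and CD2 (2.18) stand out in H8/NC, while ZAP70 moves from 0.45 in H8/NC to 4.94 in H24/NC.

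The genes shared 1 pattern over the 9 libraries to different degrees. Pearson's r of a gene's log2(FPKM + 0.1) with the mean of the other 9 was highest for CD5 (0.981), CD3D (0.976) and ZAP70 (0.965) and lowest for CD3E (0.790). It is a description that rests much on H24 replicate 3, in which 9 of the 10 genes were highest. Of 12352 other genes, 163 had an r of at least 0.95 with the mean of the 10, and the closest were SOWAHD (0.989), TREH (0.989), BATF (0.988), MMP9 (0.988) and NCF4 (0.987). SOWAHD encodes an ankyrin repeat protein, TREH the enzyme trehalase, BATF a transcription factor of lymphocytes, MMP9 a matrix-degrading protease and NCF4 a subunit of the phagocyte oxidase. MMP9, for example, was at 0.174 to 0.375 FPKM in NC, at 1.09 to 2.39 FPKM in H8 and at 13.0, 14.7 and 437 FPKM in H24. Without H24 replicate 3, 0 of these 5 genes were among the 5 closest.

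The wider T cell receptor pathway was read from 5 lists with 85 genes, all found in the table. In H24/NC, 41 of the 74 genes tested were called higher, where 9.95% of all genes passed upward, and 0 were called lower, where 1.52% passed downward. Of the 74, 24 passed the filter only through H24, and 17 of the 41 were among these. Without H24 replicate 3, 26 were called higher, where 946 of all 14578 genes tested passed upward. In H8/NC 15 of 53 tested were called higher, where 5.11% of all genes passed upward, and 3 of the 53 passed the filter only through H8. Among the adaptors, kinases and factors that carry the signal (27 genes), 12 of 22 tested were called higher in H24/NC, with a median log2 fold change of 1.69 beside 0.01 over all genes tested. WAS, a regulator of actin at the synapse, had the smallest p-value (log2 fold change 4.45, edgeR adjusted p = 0.132), with 0.249 to 0.390 FPKM in NC and 3.59, 2.20 and 14.8 FPKM in H24. VAV1 (5.19, adjusted p = 0.132), an exchange factor, and LCP2 (5.04, adjusted p = 0.132), the adaptor SLP-76, came next. These 3 genes are used by blood cells other than T cells too. SH2D1A, the adaptor SAP of T and NK cells, was at 0 in all NC libraries and at 0.206, 0.0561 and 0.706 FPKM in H24, at least 77.1-fold higher against a floor of 3 counts over the NC group. In H8/NC, 6 of 18 tested were called higher (LCP2 2.07, VAV1 2.60, WAS 1.66, RHOH 1.64, NFATC1 1.86 and NFATC2 1.70), with a median of 0.16. NFATC1 and NFATC2, factors of calcium signalling, were highest in H8 replicate 2 at 38.8 and 4.96 FPKM.

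Among the regulators of the signal, most of them inhibitory, 9 of 15 genes were called higher in H24/NC (median 3.49), where 9.95% of all genes passed upward. They were led by LAX1, an inhibitory adaptor (3.95), UBASH3B, a phosphatase (4.67), PTPRC (5.32) and the phosphatase PTPN6 (4.34), with adjusted p-values of 0.132 to 0.133. PTPRC is also needed for the signal, since it removes an inhibitory phosphate from LCK. PTPRC was at 0.184 to 0.257 FPKM in NC, at 1.96, 0.480 and 0.747 FPKM in H8 and at 4.00, 0.855 and 22.8 FPKM in H24. PTPRC (2.33), UBASH3B (2.25) and PTPN6 (1.86) were the 3 of 11 tested that were called in H8/NC (median 0.75). Of the lineage transcription factors, 6 of 14 tested were called higher in H24/NC (median 1.80), beside the same 9.95% of all genes. RUNX1, a factor of many blood cells, had the smallest p-value (3.05, edgeR adjusted p = 0.129), with RUNX3 (4.14), IKZF3 (3.51) and BATF (4.43) next. In H8/NC, RUNX1 (1.51) and RUNX3 (1.65) were called higher and EOMES, a factor of cytotoxic cells, was called lower (-4.28), where 2.27% of all genes passed downward, which came with 0.751 FPKM in NC replicate 2 beside 0.0377 and 0.108 FPKM in the other NC libraries. The median of the 11 tested was 0.03. BCL11B, the factor that fixes the T cell fate, was named after its values were seen. It was at 0 in all NC and H8 libraries and at 0.0212, 0.0316 and 0.107 FPKM in H24, at least 11.6-fold higher than the floor in NC.

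Among the receptors of T cell state and homing, 12 of 17 tested were called higher in H24/NC (median 4.06), where 9.95% of all genes passed upward. How many passed the filter only through H24 was not counted by list. Called genes included CXCR6 (4.11), IL7R (5.52) and IL2RB (3.04), with adjusted p-values of 0.132 to 0.150. CXCR6 is a chemokine receptor, and IL7R and IL2RB are the receptor chains for the survival and growth cytokines IL-7 and IL-2. In H8/NC, 2 of 8 tested were called higher (median 1.13). Of the genes described as ligands of CD2, CD5 and CD6, CD48 (5.88, adjusted p = 0.132) and CD72 (3.02, adjusted p = 0.210) were called higher in H24/NC, and CD58 (0.50, adjusted p = 0.551) and ALCAM (0.48, adjusted p = 0.704), the ligands of CD2 and CD6 on tissue cells, were not, with a median of 0.67 over 6 genes. CD48 (2.46) and CD72 (1.12) were also called in H8/NC (5 tested, median 0.01), and both are carried by leukocytes themselves. In H24/H8, with a median of 0.04 over all genes, the 5 lists had 11 of 23, 6 of 15, 6 of 13, 7 of 17 and 1 of 5 tested genes called higher in the same order, with medians of 1.87, 2.07, 1.66, 2.72 and 0.58. Of all genes tested there, 7.22% passed upward. Of the 73 pathway genes tested in H24/H8, 16 passed the filter only through H24, and 8 of the 31 called higher were among these.

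**Figure D5:**
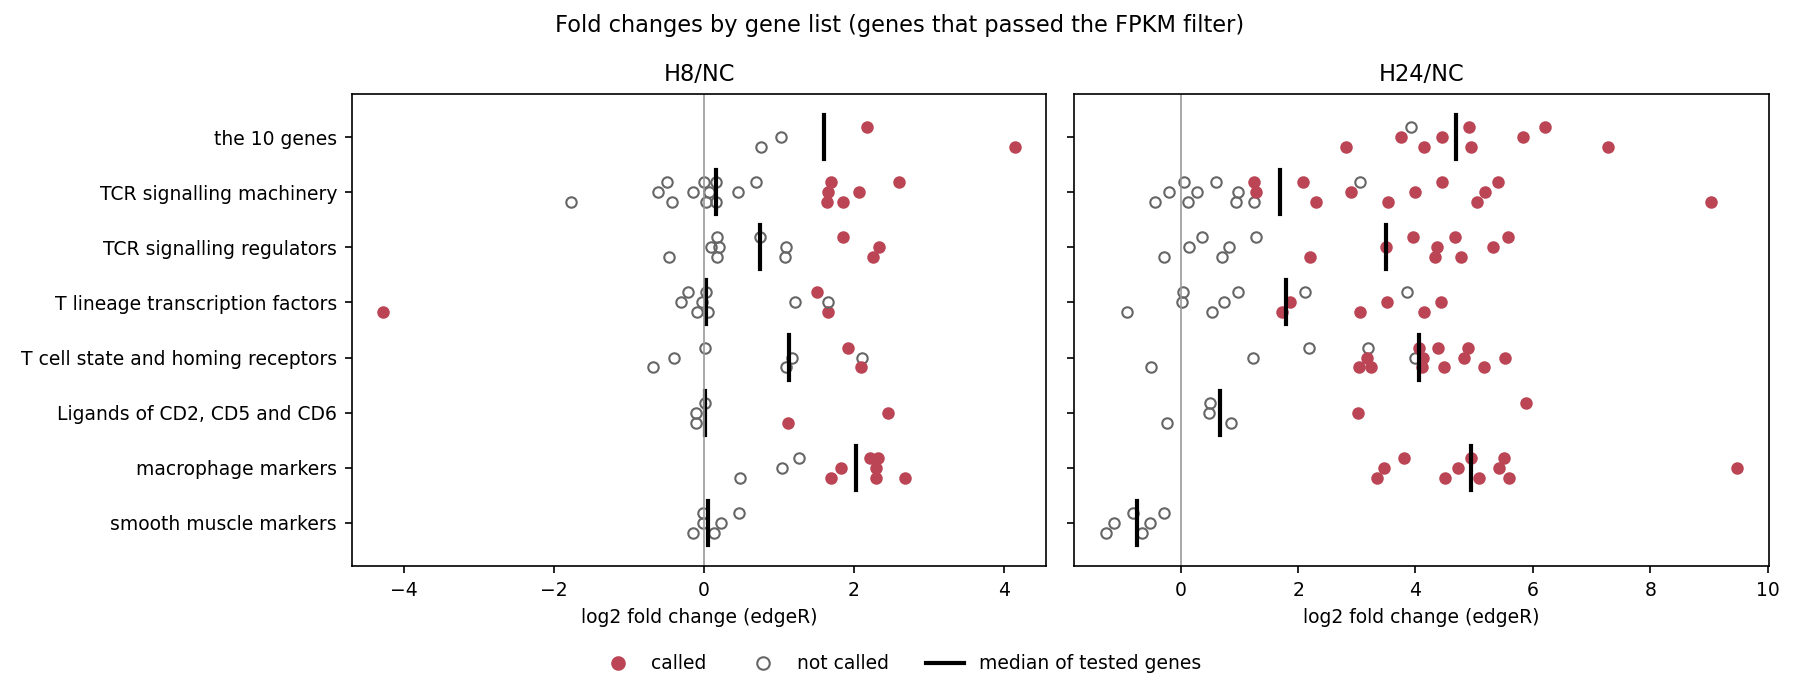
Log2 fold changes from edgeR in H8/NC and H24/NC for the tested genes of the 10 members, the 5 pathway lists, the macrophage markers and the smooth muscle markers. Filled points were called, open points were not, and the bar is the median of the tested genes; the macrophage markers have a median of 2.03 in H8/NC and 4.94 in H24/NC, and 0 of the 6 smooth muscle markers were called in either.

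Markers of other cells moved with these results. Beside the marker counts in this and the next paragraph, 9.95% of all genes tested passed upward in H24/NC, 5.11% in H8/NC and 7.22% in H24/H8. How many markers passed the filter only through the higher group was not counted. The macrophage markers were called higher in 11 of 11 genes in H24/NC and in 7 of 10 tested in H8/NC, and summed to 25.6 to 35.0 FPKM in NC, to 33.2 to 194 FPKM in H8 and to 187 to 2028 FPKM in H24. In H24/H8, 10 of 11 macrophage markers (median 2.81) and 4 of 5 adipocyte markers (median 3.14) were called higher. The same held there for 3 of 5 B and plasma cell, 2 of 5 NK cell, 2 of 5 plasmacytoid dendritic cell and 1 of 2 gamma delta genes, and for 0 of 6 smooth muscle, 0 of 4 endothelial and 0 of 3 stroma markers. Of the adipocyte calls, those of ADIPOQ and PLIN1 rest mostly on H24 replicate 1, at 7.24 and 5.58 FPKM. The other H24 libraries held at most 0.416 FPKM of ADIPOQ and 0.213 FPKM of PLIN1. CD68, a lysosomal protein of macrophages, was at 4.10 to 6.23 FPKM in NC and at 65.3, 38.7 and 616 FPKM in H24. The ratio of CD3E to CD68 overlapped between all groups (H24 minus NC 1.11 on the log2 scale, exact permutation p = 0.80). Against PTPRC, too, CD3E overlapped in all comparisons (H24 minus NC 1.46, exact permutation p = 0.80, adjusted p = 0.900 for both). Both positive differences rest on H24 replicate 2. CD3E to CD68 was 0.0187, 0.407 and 0.00807 in H24 replicates 1, 2 and 3, beside 0.0113 to 0.0305 in NC. CD3E to PTPRC was 0.306, 18.5 and 0.218 in H24, beside 0.192 to 0.723 in NC. The part of the macrophage genes in the pathway counts was not tested. The NK cell markers summed to 1.15 to 2.91 FPKM in NC, 2.73 to 20.8 FPKM in H8 and 21.0 to 346 FPKM in H24, nearly all of it NKG7, while KLRD1 was at 0 in all libraries and NCR1 at 0 in NC. In this list 3 of 6 tested were called higher in H24/NC and 1 of 3 in H8/NC. Of the gamma delta T cell genes, 3 of 5 were in the table and their sum (31.8 to 67.4, 7.87 to 24.6 and 7.99 to 49.1 FPKM in NC, H8 and H24) was nearly all SOX13. SOX13, a transcription factor also made by other cells, had a log2 fold change of -1.01 in H24/NC (adjusted p = 0.590) and was called lower in H8/NC (-1.47, adjusted p = 0.239), where it was the only gene of the list tested. TRDC, the constant gene of the delta receptor chain, which was named after its values were seen, was called higher in H24/NC (4.37, adjusted p = 0.176), at 0.126, 0.0607 and 0.00713 FPKM in NC, 0.162, 0.12 and 0.109 FPKM in H8 and 0.711, 0.416 and 2.98 FPKM in H24.

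The B and plasma cell markers summed to 7.31 to 7.77 FPKM in NC, 2.37 to 4.70 FPKM in H8 and 10.7 to 15.9 FPKM in H24, with 2 of 6 tested called higher in H24/NC and 0 of 4 in H8/NC, where 1 was called lower. Most of this sum was CD79A, at 1.25 to 11.3 FPKM, while MS4A1 was at 0 in NC and at most 0.190 FPKM in the other groups. The ratio of CD3E to CD79A did not overlap in any comparison (H24 minus NC 4.71, H8 minus NC 1.92, H24 minus H8 2.80, each with exact permutation p = 0.1 and adjusted p = 0.338). The gap in H24/H8 was slight, with 0.127 in H24 replicate 1 beside 0.121 in H8 replicate 2, and H24 replicate 2 was highest at 1.68. In H8/NC the denominator was lower too: CD79A had a log2 fold change of -0.96 (not called). CD3E itself overlapped between H8 and NC (0.76, not called). The plasmacytoid dendritic cell markers summed to 2.59 to 3.31, 3.44 to 8.80 and 8.78 to 58.6 FPKM in NC, H8 and H24, with 2 of 4 tested called higher in H24/NC and 2 of 4 in H8/NC. The stroma markers of lymphoid tissue, a check for lymph nodes in the sample, summed to 74.2 to 96.6, 53.7 to 93.0 and 72.5 to 102 FPKM, nearly all CCL19, with 2 of 3 tested called higher in H24/NC (CCL21 and LTB) and 0 of 3 in H8/NC. The endothelial markers summed to 47.6 to 127, 31.7 to 58.3 and 54.2 to 90.4 FPKM, with 0 of 4 called in H24/NC and in H8/NC. The adipocyte markers summed to 89.7 to 157, 49.1 to 140 and 57.2 to 106 FPKM, with 1 of 5 called higher in H24/NC and 3 of 4 called lower in H8/NC, where 2.27% of all genes passed downward. Most of this sum was FABP4, at 47.9 to 139 FPKM, and other markers of the list differed between groups. ADIPOQ was at 4.44 to 14.6 FPKM in NC, at 0.0789 to 0.106 FPKM in H8 and at 7.24, 0.0705 and 0.416 FPKM in H24. In H8/NC its log2 fold change was -6.39 (edgeR adjusted p = 0.0206) and that of PLIN1 -7.57 (adjusted p = 0.0906). In H24 replicate 3, where 9 of the 10 T cell genes were highest, the macrophage markers were highest and the smooth muscle markers lowest as well, and the part of this shift in the T cell values was not tested.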

How the data were processed

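RNA-seq libraries from the abdominal aorta of minipigs (3 NC, 3 H8 and 3 H24 libraries) were grouped by the sample titles, and none was left out. The authors mapped reads with HISAT2 2.0 and assembled with StringTie 1.3.0 to the pig genome. The labels' processing notes also name Bowtie 0.12.2 and a mouse build, but the coordinates match Sscrofa11.1 in RefSeq. The deposited table gives FPKM for each gene and library. It also gives estimated counts, deposited by the authors as whole numbers without scaling to library size. The derivation of these counts, the annotation release and the strand setting are not given in the sources used here. The protocol in the labels speaks of an adipose type, while the tissue is labelled abdominal aorta.

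Counts were tested with edgeR 4.0.16 in R 4.3.3 (TMM, quasi-likelihood, two-sided) over the 2 groups compared, on genes with a mean of at least 0.1 FPKM, with Benjamini-Hochberg adjustment over all genes tested. The script was tested on simulated counts. A gene was called at a log2 fold change beyond 1 and an unadjusted p-value under 0.05, as the study's methods state. DESeq2 1.42.0, limma 3.58.1 on log2 FPKM with pseudocounts of 0.1 and 1, median-ratio factors, no filter, a filter at 1 FPKM, all 9 libraries in 1 fit, a replicate block and each replicate left out were alternatives. Ratios of FPKM were compared on the log2 scale by exact permutation tests in Python 3.11.15. The floor of 3 counts covers counting error only.

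Named genes are the 10 members, up to 4 genes of each pathway list with the smallest p-value in H24/NC, those called in H8/NC and the 5 genes most like the members. Some genes of the lists are counted but their values are not reported here. The members and lists were chosen with earlier results of these data known. Replicates are separate pigs by the study's methods in NC and H24, while the methods do not describe the H8 group. The same numbers in different groups do not pair pigs (correlations of deviations -0.06 to 0.10). Library pairs within a group all differed by more than sampling noise. Listed genes were matched by name or description.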

Additional observations from a re-analysis of the deposited data

How the results depend on the processing

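No log2 fold change of the 10 genes turned its direction under the alternatives run for it, which in H8/NC cover the 4 genes tested. For the pathway genes, the ratios and the closest genes counts were compared. With a filter at a mean of 1 FPKM, 3, 0 and 3 of the 10 genes (of 3, 0 and 3 tested) and 24, 6 and 16 pathway genes were called in H24/NC, H8/NC and H24/H8, against 9, 2 and 10 genes and 41, 15 and 31 pathway genes as reported. With limma on log2(FPKM + 1), which understates the change of low genes, they were 4, 0 and 2 of the 10 genes and 17, 2 and 10 pathway genes. Over all genes, the filter at 1 FPKM gave 1079, 440 and 796 called higher, and this limma fit 714, 202 and 517. The reported fit gave 1475, 733 and 1068. With limma on log2(FPKM + 0.1), 5 of the 10 were called in H24/H8 and 7 pathway genes in H8/NC. Over all genes, that fit called 1076 higher in H24/H8 and 454 in H8/NC. The median of all genes shifted to -0.12 in H8/NC and 0.18 in H24/H8. Leaving out each replicate in turn gave 6 to 9, 1 to 2 and 4 to 10 of the 10 genes and 26 to 48, 10 to 17 and 11 to 37 pathway genes, lowest for the 10 genes in H24/NC and H24/H8 without H24 replicate 3, and in H8/NC without H8 replicate 3. Over all genes, these lowest fits called 946 higher in H24/NC, 547 in H24/H8 and 796 in H8/NC. H24/H8 fell to 5, 6 and 6 of the 10 genes without H8 replicates 1, 2 and 3, and to 15 and 19 pathway genes without H8 replicates 2 and 3. Over all genes, 890, 556 and 617 were called higher without H8 replicates 1, 2 and 3, against 1068 as reported. The cause of these falls was not tested, except that fewer genes pass a stricter filter. With the replicate number as a replicate block, 8, 2 and 6 of the 10 genes and 35, 17 and 21 pathway genes were called. Over all genes, 1114, 639 and 800 were called higher with this block. The numbers share no pairing (3 of 9 libraries correlated best with their own number). The paired sign-flip test of the ratios gave 0 with p under 0.05, which 3 pairs cannot reach. Of the 27 ratio comparisons, 11 did not overlap, against 8 to 13 when a replicate was left out and 10 with 0.1 FPKM added. Of the 5 genes most like the members, 0 were shared with log2(FPKM + 1) and 0 to 3 without an H24 replicate. Adjusted calls over all genes in H24/NC went from 0 to 290 higher and 16 lower without H24 replicate 3. In NC the depth limits every value of the 10 genes, which rest on 67 counts or fewer.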
